A study of Mus musculus with 17 samples.

Results

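Complexes I, II and III are the entry and middle portion of the mitochondrial respiratory chain. Their nuclear-encoded genes were taken here as those whose symbol begins with Nduf or Uqcr, together with Sdha, Sdhb, Sdhc, Sdhd and Cyc1. A gene entered when the platform annotation gave it at least 1 probe set of its own, and the probe set with the highest mean over all arrays represented it. This gave 57 of the 18193 genes measured in that way, on 114 probe sets: 6 core and 28 accessory subunits of complex I, 8 complex I assembly factors, Ndufa4 and its relative Ndufa4l2, 4 subunits of complex II and 9 of complex III. The rule names no difference between times, but it was set with earlier results of these data known.

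The study followed pancreatic islets of C57BL/6 mice, the clusters of endocrine cells that include the insulin-producing beta cells, after they were taken out of the animal. In each of 6 batches the islets of 4 mice were pooled and divided, with 1 portion taken straight away (0 h), 1 after a day (24 h) and 1 after a further day (48 h) of culture. All islets were kept in F12K medium with 10% fetal bovine serum, time in culture is the only difference between the groups that the labels give, and the ages of the mice are not given in the sources used here. RNA was read on Affymetrix mouse genome arrays: 5 for 0 h, 6 for 24 h and 6 for 48 h, since that of batch 5 for 0 h was not analysed here. Replicate numbers below are batch numbers, and a batch is a pool of animals, not a single animal.

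Complex I takes electrons from NADH and complex II takes them from succinate, and both pass them to coenzyme Q. Complex III moves them on to cytochrome c and, like complex I, pumps protons across the inner membrane, which drives the synthesis of ATP. Beta cells couple glucose sensing to insulin release through this ATP. Complex I is built from modules with the help of assembly factors that are not part of the finished enzyme, and some subunits of complexes I and III are encoded by mitochondrial DNA and are not members.

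Levels are RMA values on a log2 scale, in which a step of 1 is a factor of 2, and levels of different probe sets were not set against each other. Of the 57 genes, 56 lay above the table's median of 3.52, near which a level is not separated from background. Ndufb4 lay under it at 2.73, and Ndufa4l2 at 3.63 and Ndufb1 at 3.69 lay close to it, so for these 3 genes little can be said. A further 10 probe sets shared between a member and another gene, among them those for Ndufs6 and Ndufa11, were not used. Those shared by Ndufb4, Ndufb4b and Ndufb4c had mean levels of 8.42 and 7.63, so the low level of Ndufb4 is that of 1 probe set only. Array medians ran between 3.47 and 3.57, pairs of arrays correlated at 0.976 to 0.995, and replicate 3 at 0 h and replicate 5 at 24 h correlated least with the other arrays of their time. The beta cell markers measured were all above the table's median. As a sign of RNA quality, actin read higher at its 3' end than at its 5' end by 2.02 to 2.25 at 0 h, 1.91 to 2.28 at 24 h and 1.86 to 2.18 at 48 h.

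Most of these genes were not called at either later time. At 24 h against 0 h, 5 of the 57 rose and 1 fell (10.5%), where 8.58% of all 45037 probe sets (3.86% up, 4.72% down) and 16.9% of the 11916 genes above the table's median passed, by limma with Benjamini-Hochberg adjustment over all probe sets at a threshold of 0.05. At 48 h against 0 h, 7 rose and 1 fell (14.0%), where 8.47% of all probe sets (4.67% up, 3.8% down) and 16% of genes above the median passed. The members' shares lay between those of all probe sets and those of genes above the median at both times. Without each array in turn, 4 to 8 members were called at 24 h and 2 to 9 at 48 h. Both comparisons share the 0 h arrays. Islets are a mixture of cells, so fewer cells of a type and less RNA per cell cannot be told apart in any of these values.

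At 48 h against 24 h, 0 of the 57 passed limma's test, where 0.444% of all probe sets and 1.13% of genes above the median did. At an unadjusted p under 0.05 there were 6 members in that comparison, where 11.4% of all probe sets and 17.9% of genes above the median were under it. There were 17 at 24 h against 0 h, beside 19.7% and 33.4%, and 18 at 48 h against 0 h, beside 21.3% and 33.7%. The member closest to passing between 48 h and 24 h was Ndufaf4, with an adjusted p of 0.194.

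The sizes were small. The median log2 difference of the members was 0.07 at 24 h and 0.06 at 48 h against 0 h, and 0.00 at 48 h against 24 h, beside -0.02, -0.00 and 0.02 over genes above the median. None of the 57 differed by 2-fold or more in any of the 3 comparisons. The difference was under 0.25 in size for 46 members at 24 h and 44 at 48 h against 0 h, and for 55 at 48 h against 24 h. Among genes above the median, 68.5%, 68.6% and 84.9% were under that size in the same 3 comparisons. A 95% interval lay wholly within 0.5 of no difference for 50, 48 and 55 members, and within 1, a 2-fold change, for 56, 57 and 57.

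**Figure D1:**
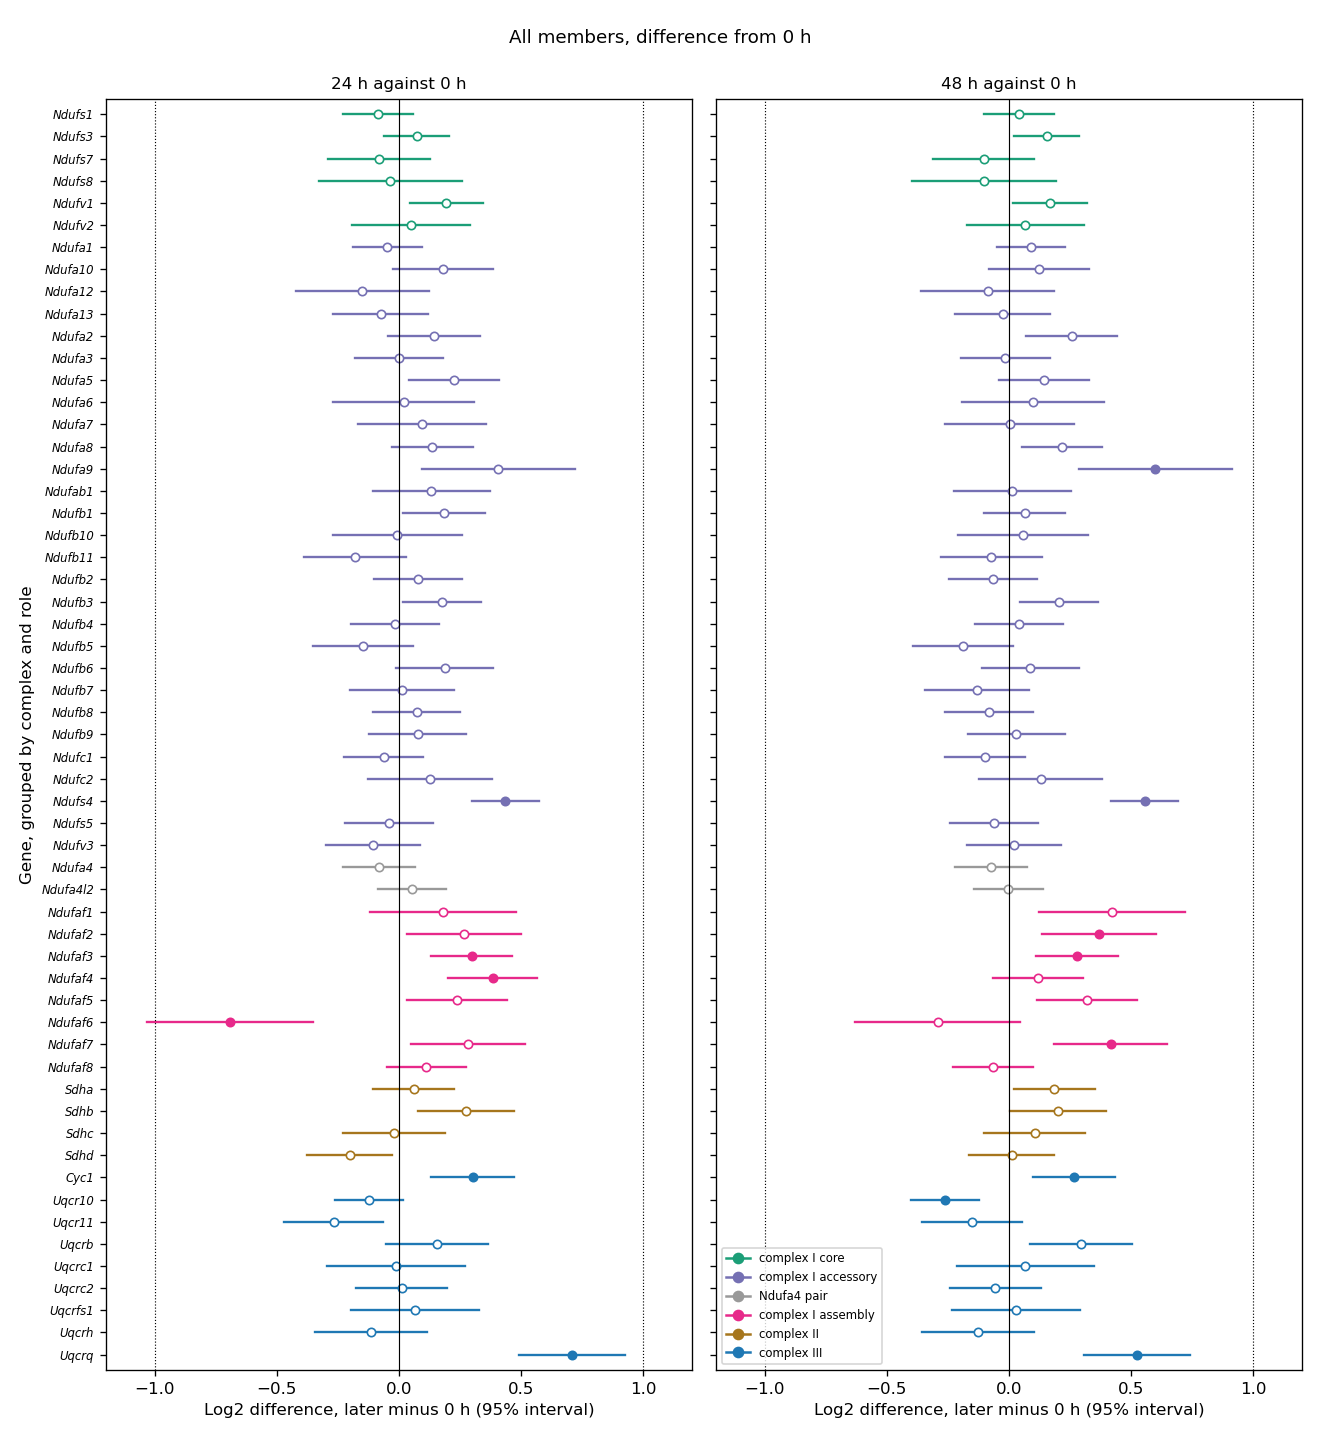
Log2 difference of each of the 57 genes from 0 h, at 24 h (left) and 48 h (right), with 95% intervals, grouped and coloured by role; filled points passed limma's test and dotted lines mark a 2-fold difference. No point lies beyond the dotted lines, the 8 assembly factors hold 3 filled points at each time, and the core subunits of complex I and the subunits of complex II hold none. Of genes above the table's median, 16.9% passed at 24 h and 16% at 48 h, so counts in such small groups say little.

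The arrays of the compared times did not overlap for 5 members at 24 h against 0 h, where 12.2% of genes above the median had no overlap, and for 9 members at 48 h against 0 h, where 12.7% had none. At 48 h against 24 h every member overlapped, where 2.13% of genes above the median did not. In all, 10 genes passed in at least 1 comparison, 5 of them subunits and 5 assembly factors, and 47 passed in none. Uqcrq, Ndufs4, Cyc1 and Ndufaf3 passed at both times against 0 h, Ndufaf4 and Ndufaf6 at 24 h only, and Ndufa9, Ndufaf2, Ndufaf7 and Uqcr10 at 48 h only. For genes that passed at 1 time only, the difference between 48 h and 24 h did not pass.

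Promoter sequence was available for 47 of the 57 genes, from RefSeq on mouse build GRCm38.p6, as windows of 300 bases that reach from 250 bases before the annotated start to 50 bases after it. The 4 below are shown because their genes passed the test and they include a rise at both times (Ndufs4), a rise at 48 h (Ndufa9), a rise at 24 h (Ndufaf4) and a fall at 48 h (Uqcr10). Each is written on the gene's own strand, and capitals mark a match to a motif of NRF1 or YY1, transcription factors known to bind at genes of mitochondrial proteins. The choice was made after the genes' values were seen.
Ndufs4, chr13:114388045-114388344, minus strand: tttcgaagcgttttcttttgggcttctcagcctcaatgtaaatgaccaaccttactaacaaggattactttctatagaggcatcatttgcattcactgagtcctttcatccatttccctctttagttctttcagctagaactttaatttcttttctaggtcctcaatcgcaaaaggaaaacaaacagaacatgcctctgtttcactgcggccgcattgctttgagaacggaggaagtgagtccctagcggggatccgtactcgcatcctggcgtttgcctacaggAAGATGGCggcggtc
Ndufa9, chr6:126849095-126849394, minus strand: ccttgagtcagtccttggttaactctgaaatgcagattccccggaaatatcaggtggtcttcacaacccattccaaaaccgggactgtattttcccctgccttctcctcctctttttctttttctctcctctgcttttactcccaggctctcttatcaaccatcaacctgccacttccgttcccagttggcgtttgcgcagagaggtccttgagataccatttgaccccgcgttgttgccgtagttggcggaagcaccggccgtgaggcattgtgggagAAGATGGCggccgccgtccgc
Ndufaf4, chr4:24897833-24898132, plus strand: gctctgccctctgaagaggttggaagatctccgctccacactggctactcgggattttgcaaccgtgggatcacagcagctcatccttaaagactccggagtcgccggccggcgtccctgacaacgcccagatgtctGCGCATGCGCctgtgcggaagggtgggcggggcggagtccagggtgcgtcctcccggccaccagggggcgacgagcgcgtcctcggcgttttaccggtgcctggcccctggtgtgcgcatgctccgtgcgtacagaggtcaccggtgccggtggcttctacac
Uqcr10, chr11:4704295-4704594, minus strand: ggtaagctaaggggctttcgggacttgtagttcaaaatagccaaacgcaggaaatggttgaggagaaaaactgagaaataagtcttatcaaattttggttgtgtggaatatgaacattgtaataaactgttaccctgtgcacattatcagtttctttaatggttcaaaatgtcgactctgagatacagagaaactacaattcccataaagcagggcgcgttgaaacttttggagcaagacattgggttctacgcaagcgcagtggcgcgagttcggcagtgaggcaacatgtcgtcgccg

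All 3 motifs were searched on both strands, by exact match, and positions count from the first base of the window. The YY1 motif AAGATGGC lay at bases 286 to 293 of the Ndufs4 window and 280 to 287 of the Ndufa9 window, just after the annotated start in both. The NRF1 motif GCGCANGCG matched the Ndufaf4 window once on each strand, at bases 138 to 146 and 139 to 147, so that the matches overlap. The Uqcr10 window held none of the motifs. Over the 49 windows of member genes, the NRF1 motif was in 13 (26.5%), against 6.25% of all 32851 windows and 12.7% of the 12412 windows of genes above the median. The ETS family motif CCGGAAG was in 10 (20.4%), against 8.86% and 16.6%, and the YY1 motif in 7 (14.3%), against 2.75% and 4.36%. The test was passed at any time by 1 of the 12 genes that hold the NRF1 motif, 0 of 10 with the ETS motif and 2 of 7 with the YY1 motif, beside 7 of all 47 genes with a window. A match describes these letters only.

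The core subunits of complex I, which carry the flavin and the iron-sulfur clusters along which electrons travel, held 0 of 6 genes that passed in each of the 3 comparisons. Of genes above the median, 16.9% passed at 24 h and 16% at 48 h against 0 h, and 1.13% at 48 h against 24 h. A count of 0 among 6 genes therefore says little. The differences of the core subunits at 24 h ran from -0.09 to 0.19, and at 48 h from -0.10 to 0.17. Ndufv1, the subunit that binds NADH, stood at 10.52, 10.46, 10.49, 10.54 and 10.46 at 0 h. Its lowest, median and highest levels were 10.52, 10.71 and 10.77 at 24 h, and 10.42, 10.69 and 10.83 at 48 h. All but the lowest 24 h array, replicate 5, lay above every 0 h array, while the 48 h arrays spanned the 0 h range. The differences of 0.19 ± 0.07 and 0.17 ± 0.07 (SE) had adjusted p of 0.115 and 0.172. A further probe set of Ndufv1, with a mean level of 10.06, was 0.35 ± 0.08 higher at 48 h with an adjusted p of 0.007, so the 3 probe sets of this gene do not give 1 answer.

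Ndufs3, in the arm that faces the matrix, was 9.98, 10.00, 10.01, 9.88 and 10.09 at 0 h. It had a lowest, median and highest level of 9.99, 10.05 and 10.18 at 24 h and of 10.06, 10.11 and 10.27 at 48 h. Each of the 5 batches with a 0 h array was higher at 48 h, by 0.09 to 0.18, yet the arrays overlapped and the adjusted p was 0.153. Ndufs1, the largest iron-sulfur subunit, differed by -0.09 ± 0.07 at 24 h and 0.04 ± 0.07 at 48 h. The values were -0.08 ± 0.10 and -0.10 ± 0.10 for Ndufs7, next to the site where coenzyme Q binds, and -0.03 ± 0.14 and -0.10 ± 0.14 for Ndufs8, another iron-sulfur subunit. Ndufv2, which pairs with Ndufv1, differed by 0.05 ± 0.11 and 0.07 ± 0.11. None of these 5 genes passed, and the arrays overlapped in every case.

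Of the 28 accessory subunits of complex I, which surround the core and stabilise it, 1 rose at 24 h and 2 at 48 h, and 0 fell. Among genes above the median, 7.96% rose and 8.96% fell at 24 h, and 9.44% rose and 6.51% fell at 48 h. Ndufs4, needed for a stable NADH-oxidising arm and lost in a mouse model of Leigh syndrome, rose at both times. It read 7.82, 7.73, 7.65, 7.84 and 7.81 at 0 h. Its lowest, median and highest levels were 8.06, 8.24 and 8.30 at 24 h, and 8.25, 8.30 and 8.49 at 48 h. Every later array lay above every 0 h array, and all 5 batches moved up at each time. The differences from 0 h were 0.44 ± 0.07 at 24 h (1.35-fold, adjusted p = 0.000181) and 0.56 ± 0.07 at 48 h (1.47-fold, adjusted p = 1.82e-05), and both calls held without each array in turn.

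The other probe sets of Ndufs4 differed from this one. The set with a mean level of 5.06 was 0.26 ± 0.11 higher at 24 h and 0.18 ± 0.11 higher at 48 h, and neither passed. The set at 3.88, near the table's median, went the opposite way, with -0.76 ± 0.16 at 24 h (adjusted p = 0.004) and -0.43 ± 0.16 at 48 h (adjusted p = 0.110). The fourth, at 2.87, lay under the median. When the mean of all 4 represented the gene, its difference at 24 h was -0.02 with an adjusted p of 0.897. At 48 h this difference was 0.05 with an adjusted p of 0.758. The rise of Ndufs4 at both times therefore rests on the brightest probe set.

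Ndufa9, an accessory subunit near the coenzyme Q site that helps to join the matrix arm to the membrane arm, rose at 48 h. Its 0 h levels were 10.00, 10.09, 9.42, 9.57 and 9.77. At 24 h the lowest, median and highest were 9.65, 10.25 and 10.47, and at 48 h 10.12, 10.35 and 10.60. The 48 h arrays all lay above the 0 h arrays, whereas the 24 h arrays spread across both. At 48 h the difference was 0.60 ± 0.15 (1.52-fold, adjusted p = 0.016), upward in 5 of 5 batches by 0.13 to 0.90, and at 24 h it was 0.41 ± 0.15 with an adjusted p of 0.112. The 48 h call was lost with the batch as a block (adjusted p = 0.0587), without replicate 3 at 0 h (0.0503) and without replicate 4 at 0 h (0.0502), and a call at 24 h appeared without replicate 6 at 24 h (0.0215). The remaining accessory subunits did not pass at either time, with Ndufa5 passing only on its second probe set, which was 0.27 ± 0.07 higher at 24 h (adjusted p = 0.023).

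Ndufa4, once counted in complex I and now known as a subunit of complex IV, averaged 8.75 ± 0.11 at 0 h, 8.67 ± 0.12 at 24 h and 8.68 ± 0.07 at 48 h (SD, n = 5, 6 and 6). The differences of -0.08 ± 0.07 and -0.07 ± 0.07 (SE) did not pass. Ndufa4l2, known as a target of the hypoxia-inducible factor HIF-1, ranged over 3.54 to 3.64 at 0 h, 3.56 to 3.96 at 24 h and 3.57 to 3.66 at 48 h, levels that are not separated from background.

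**Figure D2:**
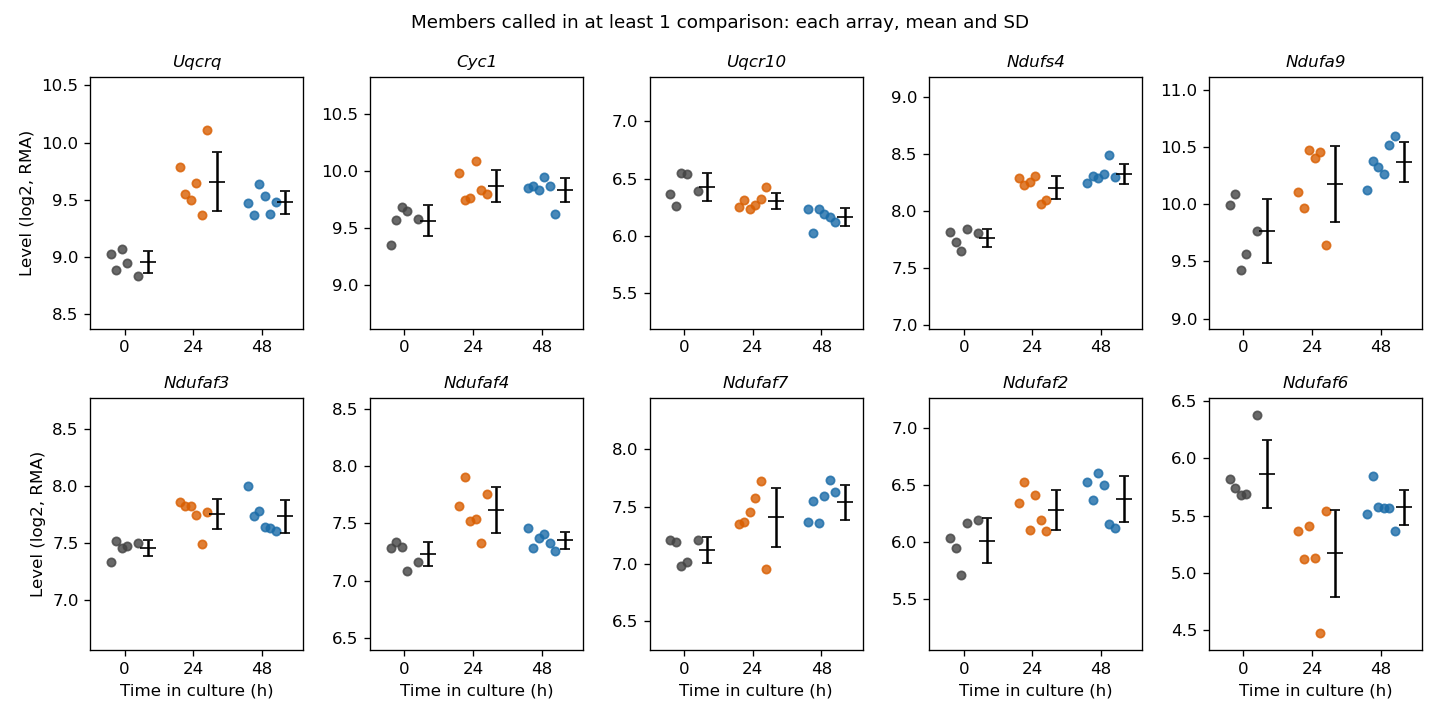
Log2 level of the 10 genes that passed in at least 1 comparison, for every array at 0 h (5 arrays), 24 h (6) and 48 h (6), with the mean and SD beside the points; each panel has its own axis range. Uqcrq and Ndufs4 show no overlap between 0 h and either later time, while Ndufaf6 is lowest at 24 h.

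The Ndufaf genes, assembly factors of complex I, held 5 of the 10 genes that passed. Of the 8, 2 rose and 1 fell at 24 h and 3 rose and 0 fell at 48 h, where 16.9% and 16% of genes above the median passed, and the median difference was 0.25 at 24 h and 0.30 at 48 h. Ndufaf3 and Ndufaf4 are known to act together on the module that binds coenzyme Q. Ndufaf3 was 7.34, 7.52, 7.46, 7.48 and 7.50 at 0 h. The lowest, median and highest were 7.49, 7.80 and 7.86 at 24 h and 7.61, 7.69 and 8.0 at 48 h. One 24 h array, replicate 5, fell among the 0 h arrays, and no 48 h array did. Ndufaf3 rose by 0.30 ± 0.08 at 24 h (1.23-fold, adjusted p = 0.023) and by 0.28 ± 0.08 at 48 h (1.21-fold, adjusted p = 0.035), in 5 of 5 batches at each time.

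These calls of Ndufaf3 depended on single arrays, and that at 48 h also on the processing. The 24 h call was lost in 3 of 17 fits, without replicate 1 at 0 h (adjusted p = 0.0683) or without replicates 1 or 3 at 24 h. The 48 h call was lost in 7 of 17 fits, without replicates 1, 3, 4 or 6 at 0 h or 1, 2 or 3 at 48 h, and the highest adjusted p was 0.0918, without replicate 1 at 0 h. Repeated quantile normalization (0.0571) and the other variance prior (0.0623) lost the 48 h call too.

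Ndufaf4 rose at 24 h. It was 7.29, 7.34, 7.30, 7.08 and 7.16 at 0 h. Lowest, median and highest levels were 7.33, 7.59 and 7.90 at 24 h and 7.26, 7.35 and 7.46 at 48 h. Only replicate 5 at 24 h reached down to the 0 h range, and the 48 h arrays lay within or just above it. The difference was 0.38 ± 0.09 at 24 h (1.30-fold, adjusted p = 0.008), kept without each array in turn, and 0.12 ± 0.09 at 48 h with an adjusted p of 0.491. The second probe set of Ndufaf4, with a mean of 5.87, differed by 0.00 ± 0.13 at 24 h and did not show this rise.

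Ndufaf6, known to be needed early in the assembly of complex I, was the only member that fell at 24 h. It read 5.82, 5.74, 5.68, 5.69 and 6.38 at 0 h, with replicate 6 standing above the others. The lowest, median and highest levels were 4.47, 5.25 and 5.54 at 24 h and 5.37, 5.56 and 5.85 at 48 h. All 24 h arrays lay under all 0 h arrays, and the 48 h arrays overlapped both. The log2 difference at 24 h was -0.69 ± 0.16 (adjusted p = 0.009), a level 0.619 times that at 0 h, in 5 of 5 batches and without each array in turn. At 48 h the difference was -0.29 ± 0.16 (adjusted p = 0.322), and 48 h against 24 h gave 0.40 ± 0.15 (adjusted p = 0.315).

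Ndufaf7, a methyltransferase needed for the assembly of complex I, rose at 48 h. Its levels were 7.21, 7.19, 6.98, 7.02 and 7.21 at 0 h. They ran over 6.96, 7.41 and 7.72 (lowest, median, highest) at 24 h and 7.35, 7.57 and 7.74 at 48 h. No 48 h array overlapped with 0 h, and 1 of the 24 h arrays, replicate 6, was under all 0 h arrays. The difference was 0.42 ± 0.11 at 48 h (1.33-fold, adjusted p = 0.023) and 0.28 ± 0.11 at 24 h (adjusted p = 0.140). At 48 h the call was lost with the batch as a block (adjusted p = 0.0548) and in 3 of 17 fits, without replicate 3 (0.0634) or 4 (0.0635) at 0 h or replicate 5 at 48 h (0.0546). Repeated quantile normalization also lost it (0.0606). Without replicate 6 at 24 h the 24 h difference passed (0.0152). The 1 probe set of Ndufaf7 is of a kind that can match transcripts of more than 1 gene.

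Ndufaf2, a chaperone of the NADH-oxidising module, rose at 48 h by 0.37 ± 0.11 (1.29-fold, adjusted p = 0.047), upward in 4 of 5 batches. Its 0 h levels were 6.04, 5.95, 5.71, 6.17 and 6.19. Lowest, median and highest levels were 6.09, 6.27 and 6.53 at 24 h and 6.12, 6.43 and 6.60 at 48 h, so the groups overlapped. The call was lost in 11 of 17 fits: without replicates 1, 2, 3 or 4 at 0 h, 1, 3 or 4 at 24 h, or 1, 2, 3 or 4 at 48 h. The highest adjusted p was 0.134, without replicate 3 at 0 h. Only the arrays compared (0.0655), the other variance prior (0.0645) and array weights (0.0514) also lost the call.

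Ndufaf5, which hydroxylates a core subunit, was the member nearest to passing at 48 h without doing so. Its 0 h levels of 5.92, 6.15, 6.30, 6.11 and 6.25 lay just under the 48 h levels with no overlap, of which the lowest, median and highest were 6.30, 6.47 and 6.68. The difference was 0.32 ± 0.10 with an adjusted p of 0.0504. It passed in 6 of 17 fits with 1 array left out (replicate 3 at 0 h, replicates 1, 4 or 5 at 24 h, replicates 1 or 3 at 48 h), and with the batch as a random block (0.0473). Other settings that gave a call were only the arrays compared (0.0419), median centring (0.0298), a filter at the median (0.0403) and array weights (0.0277). The mean of all probe sets also gave a call (0.0341), but Ndufaf5 has 1 probe set, so its difference was unchanged. Just inside the threshold at 48 h stood Cyc1 at 0.0476 and Ndufaf2 at 0.0471.

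In complex II, succinate dehydrogenase, which also works in the citric acid cycle, 0 of 4 genes passed in any of the 3 comparisons. With 16.9% of genes above the median passing at 24 h and 16% at 48 h against 0 h, a count of 0 among 4 says little. Sdha, the flavoprotein that oxidises succinate, was at 11.12, 11.15, 11.19, 11.001 and 11.12 at 0 h. It showed a lowest, median and highest level of 11.01, 11.11 and 11.40 at 24 h and 11.18, 11.26 and 11.53 at 48 h. The lowest 48 h array lay just under the highest 0 h array and the other 5 above all of them, and the difference of 0.19 ± 0.08 had an adjusted p of 0.171. At 24 h it was 0.06 ± 0.08. Another bright probe set of Sdha, with a mean level of 10.66, went the opposite way and did not pass. That set differed by -0.22 ± 0.08 at 24 h (adjusted p = 0.0964) and by -0.17 ± 0.08 at 48 h (adjusted p = 0.224). The set at 3.58, near the table's median, was 0.51 ± 0.16 higher at 48 h (adjusted p = 0.0645). The set at 2.56 lay under the median. The probe sets of Sdha therefore differ in direction.

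Sdhb, the iron-sulfur subunit, was the member nearest to passing at 24 h. It read 9.47, 9.59, 9.71, 9.48 and 9.76 at 0 h. The lowest, median and highest were 9.55, 9.87 and 10.11 at 24 h and 9.69, 9.78 and 9.95 at 48 h. Apart from replicate 5, each 24 h array lay above every 0 h array. The difference was 0.28 ± 0.09 at 24 h (adjusted p = 0.0839) and 0.20 ± 0.09 at 48 h (adjusted p = 0.227). The 24 h difference passed with the batch as a block (adjusted p = 0.0459) and without replicate 5 at 24 h (0.0164). It also passed with complete batches alone (0.0177) and with array weights (0.0201).

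Sdhc and Sdhd anchor the enzyme in the membrane and form its coenzyme Q site. Sdhc differed by -0.02 ± 0.10 at 24 h and 0.11 ± 0.10 at 48 h. Sdhd was 9.86, 9.76, 9.56, 9.60 and 9.67 at 0 h. Its lowest, median and highest levels were 9.25, 9.55 and 9.61 at 24 h and 9.57, 9.70 and 9.82 at 48 h. All 5 batches were lower at 24 h, by 0.01 to 0.42, with overlap between the arrays, and the difference of -0.20 ± 0.08 had an adjusted p of 0.167. At 48 h against 24 h Sdhd was 0.21 ± 0.08 higher with an adjusted p of 0.293. A second probe set of Sdhd had a mean level of 6.76. It differed by -0.02 ± 0.10 at 24 h against 0 h and by -0.03 ± 0.09 at 48 h against 24 h.

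Complex III held 2 genes that rose at 24 h, and 2 that rose and 1 that fell at 48 h, of 9. Among genes above the median, 16.9% passed at 24 h and 16% at 48 h. Uqcrq, a small subunit that binds next to cytochrome b, gave the largest rise of any member at 24 h. It read 9.03, 8.89, 9.07, 8.95 and 8.83 at 0 h. Lowest, median and highest levels were 9.37, 9.60 and 10.11 at 24 h and 9.36, 9.48 and 9.64 at 48 h. Every later array lay above every 0 h array, with replicate 6 at 24 h the highest of all. Uqcrq rose by 0.71 ± 0.10 at 24 h (1.63-fold, adjusted p = 0.000143) and by 0.53 ± 0.10 at 48 h (1.44-fold, adjusted p = 0.0028). Both held in 5 of 5 batches and without each array in turn.

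The 3 other probe sets of Uqcrq had mean levels of 3.17 to 3.61, where signal is not separated from background, and differed by -0.10 to 0.19 at the 2 times. The set that carries the rise is of a kind that can match transcripts of more than 1 gene. Without such sets, Uqcrq differed by 0.17 at 24 h and 0.19 at 48 h, and neither passed.

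Cyc1, cytochrome c1, which hands electrons to cytochrome c, rose at both times. Its levels were 9.35, 9.57, 9.69, 9.65 and 9.58 at 0 h. The lowest, median and highest were 9.74, 9.81 and 10.09 at 24 h and 9.63, 9.86 and 9.95 at 48 h. The 24 h arrays all lay above the 0 h arrays, and at 48 h replicate 6 alone fell among them. The differences were 0.30 ± 0.08 at 24 h (1.23-fold, adjusted p = 0.023) and 0.27 ± 0.08 at 48 h (1.2-fold, adjusted p = 0.0476), upward in 5 of 5 batches.

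The 24 h call of Cyc1 was lost without replicate 1 at 0 h (adjusted p = 0.0745) and without replicates 1 or 4 at 24 h. The 48 h call was lost with the batch as a block (adjusted p = 0.0654) and in 13 of 17 fits, up to an adjusted p of 0.132 without replicate 1 at 0 h. It held without replicate 3 at 0 h, without replicates 4 or 5 at 24 h and without replicate 6 at 48 h. Complete batches alone (0.0824), only the arrays compared (0.0572) and repeated quantile normalization (0.140) also lost it.

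Uqcr10, a small subunit close to the Rieske protein and cytochrome c1, was the only member that fell at 48 h. It read 6.37, 6.26, 6.55, 6.54 and 6.40 at 0 h. Lowest, median and highest levels were 6.23, 6.29 and 6.43 at 24 h and 6.03, 6.18 and 6.24 at 48 h. No 48 h array reached the 0 h range, and the 24 h arrays overlapped both. The log2 difference at 48 h was -0.26 ± 0.07 (adjusted p = 0.017), a level 0.835 times that at 0 h, in 5 of 5 batches, and at 24 h the difference was -0.12 ± 0.07 (adjusted p = 0.339). The call was lost without replicate 3 (0.0551) or replicate 4 (0.0583) at 0 h, and with the other variance prior (0.0785). The other 2 probe sets of Uqcr10, with means of 5.06 and 4.64, differed by -0.30 ± 0.10 and -0.45 ± 0.20 at 48 h and did not pass.

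**Figure D3:**
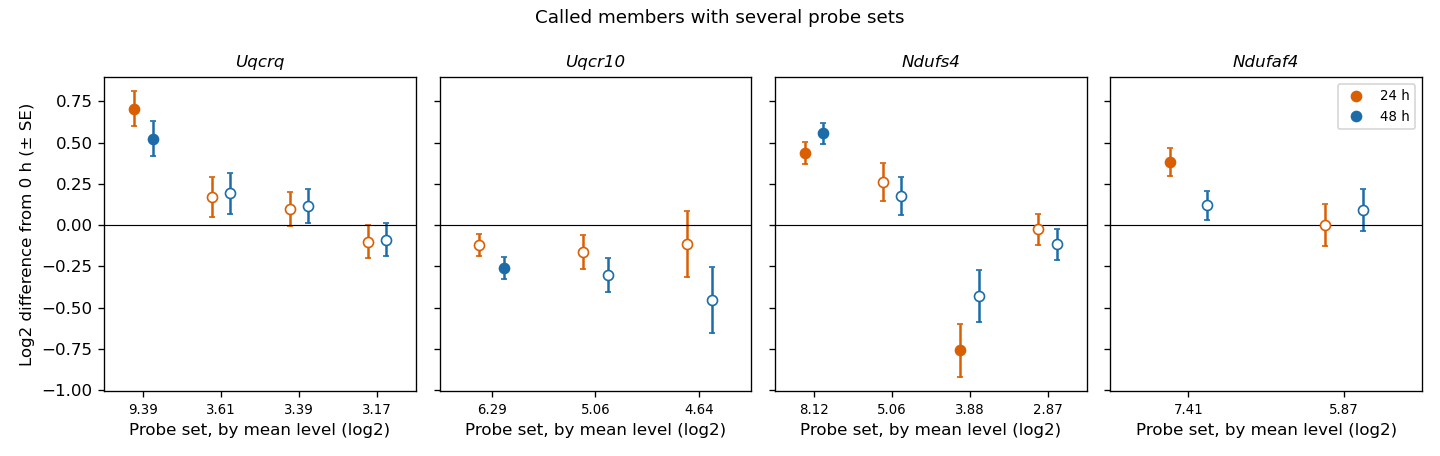
Log2 difference from 0 h, with SE, of every probe set of the 4 called genes that have several, ordered by mean level (log2, below each); orange is 24 h, blue is 48 h, and filled points passed limma's test. The brightest set carries the call in each gene, and 1 dim set of Ndufs4 lies at -0.76 at 24 h.

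The other 6 genes of complex III did not pass at either time. Uqcrb, which binds near the coenzyme Q site, was 11.93, 12.03, 11.80, 11.97 and 12.12 at 0 h. It had a lowest, median and highest of 11.86, 12.18 and 12.30 at 24 h and 12.12, 12.19 and 12.56 at 48 h. The 48 h arrays started at the top of the 0 h range, and the difference was 0.30 ± 0.10 with an adjusted p of 0.0772. With the other variance prior this difference passed (0.0457). The second probe set of Uqcrb, with a mean of 8.80, differed by 0.21 ± 0.10 at 24 h and 0.04 ± 0.10 at 48 h and did not pass. Uqcr11, a small subunit bound to the Rieske protein, was 9.23, 9.09, 9.19, 9.33 and 9.19 at 0 h, and at 24 h its lowest, median and highest were 8.68, 9.02 and 9.08. The 24 h arrays all lay under the 0 h arrays, while the difference of -0.27 ± 0.10 had an adjusted p of 0.108.

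Uqcrfs1, the Rieske iron-sulfur protein, differed by 0.07 ± 0.12 at 24 h and 0.03 ± 0.12 at 48 h. The large core proteins Uqcrc1 and Uqcrc2 differed by -0.01 ± 0.13 and 0.01 ± 0.09 at 24 h, and by 0.07 ± 0.13 and -0.06 ± 0.09 at 48 h. Uqcrh, the hinge protein that helps cytochrome c1 and cytochrome c to meet, differed by -0.11 ± 0.11 and -0.13 ± 0.11. Their arrays overlapped at both times.

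Averaged over the 34 subunits of complex I, the level on an array came to 9.31 ± 0.05 at 0 h, 9.37 ± 0.12 at 24 h and 9.37 ± 0.08 at 48 h (SD, n = 5, 6 and 6). The 8 assembly factors averaged 6.94 ± 0.10, 7.07 ± 0.10 and 7.14 ± 0.05 at the 3 times. Complex II averaged 9.41 ± 0.09, 9.44 ± 0.04 and 9.54 ± 0.04, and complex III 9.23 ± 0.05, 9.31 ± 0.14 and 9.30 ± 0.09. The assembly factors at 48 h, with 7.10 to 7.22, lay above 0 h, with 6.82 to 7.09, on every array. The gap was narrow, with the lowest 48 h array at 7.098 and the highest 0 h array at 7.092. It was not particular to them: genes of coenzyme Q synthesis, counted below, averaged 6.86 to 6.96 at 0 h and 6.99 to 7.15 at 48 h. For the subunits of complexes I, II and III the arrays of the 3 times overlapped. In complex II the overlap of 48 h with 0 h was narrow, with the lowest 48 h array at 9.466 and the highest 0 h array at 9.469. These averages carry no test, since the genes were chosen with earlier results of these data known.

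**Figure D4:**
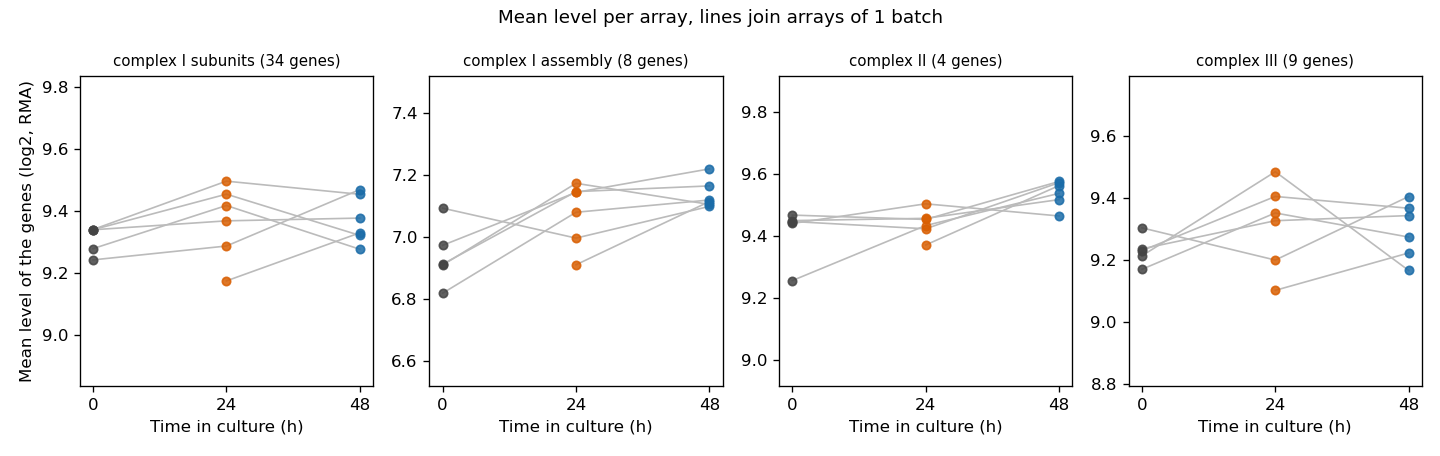
Mean log2 level over the genes of each group, 1 point per array, by hours in culture, with lines joining arrays of the same batch; the 4 axes have different centres and the same height. The assembly factors at 48 h all lie above the 0 h arrays, and 1 array of 0 h, replicate 4, lies low for complex II.

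Genes that work with these complexes were counted in the same fits, as lists of the neighbouring steps. No difference between the 57 genes and these lists was tested. Of 17 measured subunits of complex IV, which receives electrons from cytochrome c, 0 rose and 2 fell at both times. Only 11 of the 17 lay above the table's median. Cox6a2, the heart and muscle form of a complex IV subunit, averaged 9.65 ± 0.10 at 0 h, 8.19 ± 0.37 at 24 h and 8.35 ± 0.18 at 48 h (SD, n = 5, 6 and 6). Its log2 differences were -1.46 ± 0.14 at 24 h (adjusted p = 1.61e-06) and -1.29 ± 0.14 at 48 h (adjusted p = 8.54e-06), larger in size than those of the 57 genes. The other, Cox7c, was read at 3.90 or less on average, where signal is close to background.

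Of 18 subunits of the ATP synthase, 1 rose at 24 h and 0 passed at 48 h. That was Atp5mc1, a subunit of the membrane ring, with 0.55 ± 0.14 (adjusted p = 0.014), and the direction turned to -0.08 when probe sets that can match several transcripts were left out. At 48 h its difference of 0.43 ± 0.14 did not pass (adjusted p = 0.0598), but it passed with the batch blocked (0.0416) and also without replicate 5 or 6 at 24 h or replicate 2 at 48 h. Of 31 further assembly factors of complexes I to IV, whose symbols do not begin with Nduf or Uqcr, 2 rose and 1 fell at 24 h, and 4 rose at 48 h. Coa7, a factor for complex IV, rose by 0.54 ± 0.09 at 24 h and 0.65 ± 0.09 at 48 h (adjusted p = 0.000669 and 0.000144). Its 24 h call was lost with the mean of all its probe sets (difference 0.17, adjusted p = 0.145). Nubpl, which inserts iron-sulfur clusters into complex I, rose by 0.45 ± 0.10 at 48 h (adjusted p = 0.00779). Its rise of 0.38 ± 0.10 at 24 h (adjusted p = 0.026) was lost with the batch blocked (0.0550) and also without replicates 1, 3 or 4 at 0 h or 1 or 5 at 24 h. The fall was that of Sdhaf4, a factor for complex II, with -0.61 ± 0.16 (adjusted p = 0.0175), lost without replicate 4 at 0 h (0.0574). Both cytochrome c genes were without a call.

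Of 18 measured enzymes of the citric acid cycle and pyruvate dehydrogenase, 1 rose and 1 fell at 24 h, and 2 rose at 48 h. Fh1, fumarate hydratase, which uses the product of complex II, rose by 0.82 ± 0.10 at 48 h against 0 h (1.76-fold, adjusted p = 2.32e-05). It was also the 1 gene of the list higher at 48 h than at 24 h, by 0.49 ± 0.09 (adjusted p = 0.0199), a call lost with the batch as a block (0.0523), without replicate 2 at 24 h (0.0538) and without replicate 2 at 48 h (0.0544). The 24 h calls were less firm. Fh1 at 24 h, with 0.32 ± 0.10 (adjusted p = 0.0485), was lost with the batch as a block (0.0708) and in 14 of 17 fits, and held only without replicate 1 at 0 h or replicates 1 or 5 at 24 h. Idh3g, a subunit of isocitrate dehydrogenase, with -0.33 ± 0.10 (adjusted p = 0.0429), was lost with the batch as a block (0.101) and in 11 of 17 fits, and held only without replicate 6 at 24 h or replicates 1, 3, 4, 5 or 6 at 48 h.

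Of 7 other enzymes that feed coenzyme Q, 1 fell at 24 h and 0 passed at 48 h. The fall of Dhodh, which makes a pyrimidine precursor, was -0.41 ± 0.12 (adjusted p = 0.0425). It was lost in 12 of 17 fits (up to 0.126), holding only without replicates 3 or 6 at 0 h, 3 at 24 h, or 3 or 6 at 48 h, and was lost with complete batches (0.0856). In the synthesis of coenzyme Q, 1 of 11 genes rose at 24 h and 3 at 48 h, among them Coq3, a methyltransferase, by 0.56 ± 0.12 (adjusted p = 0.00616). Of 13 genes of mitochondrial protein import, 3 rose at 24 h and 2 at 48 h. Timm8b, a small carrier of the intermembrane space, rose by 0.39 ± 0.06 at 24 h and 0.35 ± 0.06 at 48 h (adjusted p = 0.000427 and 0.00132).

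**Figure D5:**
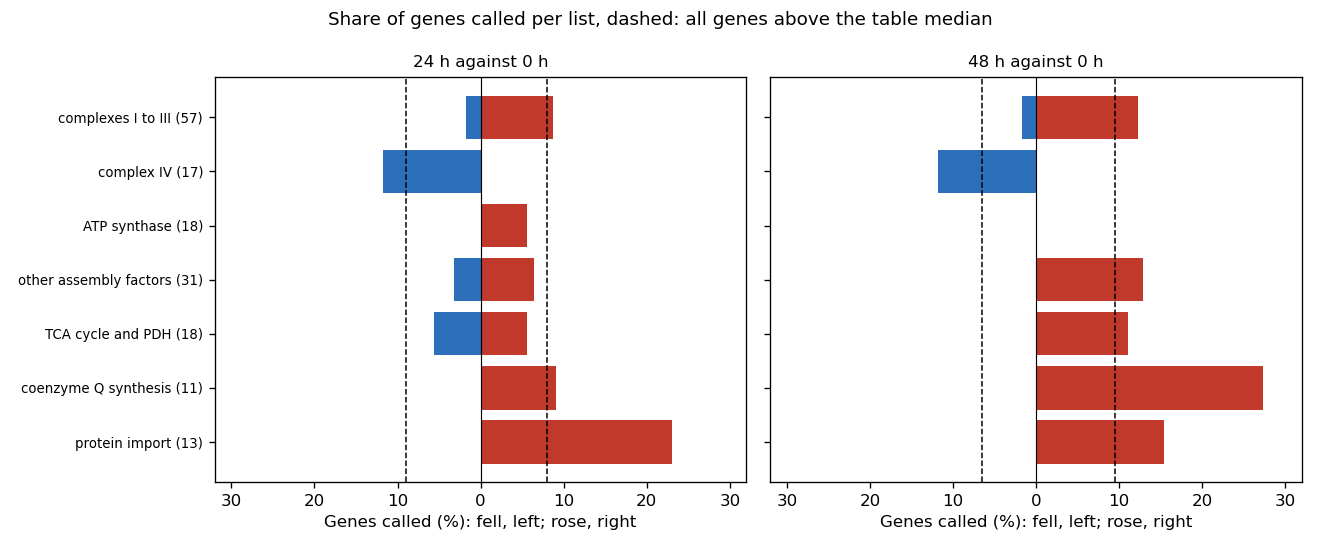
Share of the measured genes of each list that passed limma's test, with those that fell to the left of 0 and those that rose to the right, at 24 h (left panel) and 48 h (right panel) against 0 h. Dashed lines mark all genes above the table's median. Of these, 7.96% rose and 8.96% fell at 24 h, and 9.44% rose and 6.51% fell at 48 h. Numbers in brackets are genes measured, and of the 17 of complex IV only 11 lay above the median.

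Of 16 regulators of mitochondrial genes, 0 passed at 24 h and 1 rose at 48 h. This was Nrf1, the transcription factor whose motif was searched above, at 6.01 ± 0.33 at 0 h, 6.60 ± 0.28 at 24 h and 6.87 ± 0.40 at 48 h (SD, n = 5, 6 and 6). The difference was 0.86 ± 0.19 at 48 h (1.81-fold, adjusted p = 0.00619) and 0.59 ± 0.19 at 24 h (adjusted p = 0.0605). The 24 h difference passed in 5 of 17 fits, without replicate 4 at 0 h, 2 or 6 at 24 h, or 3 or 5 at 48 h. It also passed with the mean of all its probe sets (0.62, adjusted p = 0.000203), with only the arrays compared (0.0423), with median centring (0.0497), among probe sets above the median (0.0387) and with array weights (0.0307). Tfam, which packs mitochondrial DNA and helps to transcribe it, differed by 0.21 ± 0.11 and 0.30 ± 0.11 and did not pass, though without replicate 2 at 24 h the 48 h value did (0.0441). Gabpa, an ETS family factor, and Esrra, a nuclear receptor of energy metabolism, differed by no more than 0.07 in size at either time. Ppargc1a, their coactivator, averaged 3.44 ± 0.51 at 0 h, 2.90 ± 0.29 at 24 h and 3.04 ± 0.26 at 48 h, under the median of the table, and its differences of -0.54 ± 0.19 and -0.41 ± 0.19 did not pass. With the mean of its probe sets they were -0.42 (adjusted p = 0.00182) and -0.30 (0.0226) and passed, and the 24 h difference also passed without replicate 1 at 0 h (0.0195).

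Markers of islet and other cell types moved over the same times. Of 7 measured beta cell markers, 5 fell at 24 h and 4 at 48 h, and their sum, on the log2 scale, ran over 14.94 to 14.99 at 0 h, 14.75 to 14.92 at 24 h and 14.77 to 14.85 at 48 h. Of 8 endothelial markers, 5 fell at 24 h and 6 at 48 h, with sums of 10.06 to 10.39, 9.001 to 9.21 and 8.31 to 8.82. Acinar markers, from the exocrine pancreas, spread widely between arrays, with sums of 10.13 to 12.63, 8.74 to 11.59 and 9.35 to 10.30, and of 9 measured 1 fell at 24 h and 4 at 48 h. Other endocrine markers fell for 3 of 4 genes at 24 h and 1 at 48 h, with sums of 13.17 to 13.89, 12.88 to 13.47 and 12.66 to 13.47.

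Of 8 macrophage markers 1 rose and 5 fell at 24 h, and 2 rose and 4 fell at 48 h, with sums of 10.32 to 11.09, 9.06 to 9.49 and 8.91 to 9.42 at the 3 times. Of 8 fibroblast markers 4 fell at 24 h, and 3 rose and 1 fell at 48 h, with sums of 9.14 to 9.85, 7.51 to 7.77 and 8.57 to 9.37. Of 5 duct markers 1 rose at each later time, and the sums were 10.85 to 11.28, 11.36 to 11.79 and 11.21 to 11.59. Only 1 of 7 markers of fat and muscle lay above the table's median, and 1 rose at 24 h. The part of these shifts in the results for complexes I to III was not tested.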

How the data were processed

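Each array has 1 deposited log2 value per probe set, an RMA value per the submitters' processing notes, with the RMA version not given in the sources. The RMA steps (background, quantile normalization, probe summary) are a procedure that removes a change shared by most transcripts and compresses differences of dim genes. Values ran from 1.55 to 13.81. The number of arrays limits the precision, and no detection calls were used here. Of 45101 probe sets, 64 controls were left out and 45037 tested; the platform annotation gave 34945 of them 1 symbol, 932 several and left 9160 unlisted, and 0 symbols changed when updated through RefSeq.

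One mean per time was fitted to all 17 arrays with limma 3.58.1 (R 4.3.3; lmFit, eBayes) and adjusted by Benjamini-Hochberg over all probe sets. Errors of differences are limma's SE, and intervals are 95%. The procedure was tested on simulated data. Batches link arrays through a shared pool of islets, per the study's design text. Deviations from the time means correlated over the 16 same-batch pairs at a median of 0.00545 (-0.159 to 0.275, above 0.1 in 4) and over 80 other pairs at -0.00978, and the consensus correlation was 0.0183.

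Members and lists were chosen with earlier results of these data known. Named are all genes of complexes II and III, the core subunits, Ndufa4 and Ndufa4l2, every called member, the member nearest the threshold, up to 4 called genes of another list per comparison and 5 regulators. The fits were repeated with batch as a block (fixed, or random), with complete batches alone, only the arrays compared, median centring, repeated quantile normalization, a filter at the table's median, other choices of probe set, another variance prior, array weights and leaving out each array. Leaving out 2 arrays that stood apart was chosen after seeing the data.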

Additional observations from a re-analysis of the deposited data

Results flagged for a closer look

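Of 102 groups of arrays examined, 1 per named gene and group mean at each time, 13 held 1 array that stood far from the rest, by a test of the gap to the nearest array against the range (Dixon, 95%). Chance gives about 1 in 20. At 0 h, replicate 3 was low for Ndufs1 (9.33, others 9.51 to 9.57), Ndufa4l2 (3.54, others 3.62 to 3.64) and the mean of all 57 genes (8.82, others 8.86 to 8.88), and high for Uqcrfs1 (9.16, others 8.67 to 8.76). Replicate 4 at 0 h was low for Sdhc (6.95, others 7.29 to 7.35) and for the mean of complex II (9.26, others 9.44 to 9.47). Replicate 2 at 0 h was low for Ndufv2 (9.05, others 9.21 to 9.24), and replicate 6 at 0 h was high for Ndufaf6 (6.38, others 5.68 to 5.82).

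At 24 h, replicate 5 was low for Uqcrc1 (8.19, others 8.77 to 9.0) and Ndufaf3 (7.49, others 7.75 to 7.86), and high for Ndufa4l2 (3.96, others 3.56 to 3.66), a gene near background. At 48 h, replicate 6 was low for Cyc1 (9.63, others 9.83 to 9.95), and replicate 5 was high for Ndufs4 (8.49, others 8.25 to 8.32). The design holds 1 strain and 1 treatment, so effects were not set against each other between groups.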

How the results depend on the processing

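Under 12 alternatives besides leaving out single arrays, the count of members that rose at 24 h against 0 h was within 1.5 times the 5 reported, except with array weights (8). At 48 h, 4 rose and 5 passed with the replicate block as a fixed factor, and likewise with quantile normalization again, in place of 7 and 8. The 1 fall at 48 h, Uqcr10, became 0 without probe sets that can match several transcripts, with the other variance prior and, chosen after seeing the data, without both arrays that stood apart. Leaving out 1 array at a time, 3 to 7 rose and 1 to 1 fell at 24 h, with 4 to 8 called and a median difference of 0.03 to 0.12. At 48 h, 2 to 8 rose and 0 to 1 fell, with 2 to 9 called and a median of 0.02 to 0.06. Calls at 48 h numbered 2 without replicate 4 at 0 h, 4 without replicate 3 at 0 h, and 5 without replicate 1 at 0 h or replicate 2 at 48 h, and the fall was lost without replicate 3 or 4 at 0 h. At 24 h, 3 rose without replicate 1 at 0 h or at 24 h. Between 48 h and 24 h all counts were 0 and the median was -0.04 to 0.02. Calls at 24 h were kept without each array in turn for 4 of 6 genes, and at 48 h for 2 of 8. With the mean of all probe sets of a gene, Ndufs4 at 24 h was -0.0222 (adjusted p = 0.897), and Dlat, of pyruvate dehydrogenase, was -0.0564 at 48 h in place of 0.22. In this setting Ndufs4 at 48 h lost its call (difference 0.05, adjusted p = 0.758). Ndufaf4 at 24 h lost its call too (difference 0.19, adjusted p = 0.201). Without probe sets that can match several transcripts, Atp5mc1 at 24 h was -0.0798. Over the named members, 988 single values kept their side of the threshold under these 12 alternatives, 17 gained a call, 20 lost one and 1 turned direction. The batch block changed no call of a member beyond those given beside Cyc1, Ndufa9, Ndufaf7, Sdhb and Ndufaf5. Dim probe sets, and 5 or 6 arrays a time, limit what can be called: the median SE of a member was 0.09. The cause of these changes was not tested.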
